A study of Mus musculus with 6 samples.

Results

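Macrophage genes were examined in epididymal white adipose tissue, a visceral fat depot attached to the testis. The set holds 31 genes named as macrophage markers, chosen by symbol and not by their values, out of 21829 genes in the deposited table. It divides into 22 pan-macrophage genes, 5 genes of resident macrophages (Mrc1, Lyve1, Folr2, Timd4 and Vsig4) and 4 genes of lipid-associated macrophages (Trem2, Gpnmb, Itgax and Lgals3). All 31 were found, and all averaged 1 FPKM or more, the minimum for testing. FPKM scales the fragments of a gene by its transcript length and by the library's depth, so levels can be set side by side between genes.

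The tissue came from male C57BL/6J mice of 20 weeks on the diet labelled Normal Diet. There were 3 libraries of wild-type littermates (WT 1 to WT 3) and 3 labelled ZFP251 KO (KO 1 to KO 3), to study the role of ZFP251, a zinc finger protein, in this depot. The labels give neither the allele nor whether each library came from its own mouse, so p-values reflect only how far these libraries spread, which can be technical in part. In RNA from whole tissue, fewer macrophages and less RNA of a gene per macrophage cannot be told apart.

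Macrophages are the most abundant immune cells of fat. Resident macrophages lie along vessels, take up debris and carry scavenger and folate receptors, and they are maintained by signals through the receptor CSF1R. Lipid-associated macrophages gather around dying, overfilled fat cells, sense lipid through the receptor TREM2 and digest it in their lysosomes, and their number is known to grow with obesity.

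Some facts of the libraries touch every comparison. Zfp251 itself had a mean of 6.27 FPKM in the libraries labelled KO against 3.41 FPKM in WT (two-sided exact permutation p = 0.1, the smallest possible with 3 against 3), which goes against the label, so every direction below is that of the libraries labelled KO. Their RNA also held more epithelial and ciliated-cell transcripts. The 22 multiciliated genes found summed to between 42.1 and 102 FPKM in WT and between 135 and 239 FPKM in KO, and none was at 0 in all libraries. Foxj1, the regulator of motile cilia, had 13.9 FPKM in WT 1, and it was listed at 0.034 in WT 2 and at 0 in WT 3, against 44.2, 43.2 and 20.0 FPKM in KO 1, KO 2 and KO 3. The 14 epithelial genes summed to between 8.67 and 97.8 FPKM in WT and between 116 and 231 FPKM in KO. WT 3 differed from the others with transcript length. Relative to each gene's mean, genes shorter than 500 nt had a median of 0.55 (log2) in WT 3, and genes longer than 7000 nt had one of -0.25. The part of these features in the results was not tested, and their values are given where they move with one.

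The macrophage genes spanned a wide range of levels. Lyz2, the lysozyme of phagocytes, had the highest mean, 538 FPKM over the 6 libraries. The 3 chains of complement C1q followed, C1qa at 185, C1qb at 182 and C1qc at 159.8 FPKM, and then Tyrobp, a signalling adaptor, at 102 FPKM. The means of C1qa and C1qb differed by less than their spread between libraries. Csf1r, the receptor for the growth factor CSF1, stood 9th at 63.3 FPKM, and Adgre1, which encodes the F4/80 antigen, 19th at 18.1 FPKM. At the low end were Itgax (2.42 FPKM), Vsig4 (2.32 FPKM) and Cx3cr1, the fractalkine receptor (1.24 FPKM). The lipid-associated genes lay low apart from Lgals3, galectin-3, which had 82.7 FPKM against 11.5 FPKM for Gpnmb and 9.21 FPKM for Trem2.

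Most macrophage genes had lower values in the libraries labelled KO, and none passed the adjusted threshold. With limma on log2(FPKM + 1) and Benjamini-Hochberg adjustment over all 12539 tested genes, 0 members were called at an adjusted p under 0.05, as were 0% of all tested genes. The smallest adjusted p among the members was 0.223. The log2 difference, KO minus WT, was below 0 in 28 of 31 members (90.3%) and in 59.2% of all tested genes. Its median was -0.31 over the members and -0.05 over all tested genes. At an unadjusted p under 0.05 there were 9 members with lower values (29%), against 4.43% of all tested genes, and 0 with higher values, against 9.13%. The groups did not overlap in 6 members, all lower in KO (19.4%), against 12.2% of all tested genes, nearer to the background, and 0 members were higher without overlap, against 10.1%.

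The count of 9 depended on the scaling and on single libraries. It was 6 with median-ratio scaling, 6 with quantile normalization, 7 with a length and GC correction and 12 with library weights. The values of all tested genes summed to between 467000 and 637000 FPKM in WT and between 426000 and 438000 FPKM in the libraries labelled KO. The count was 14 without KO 3 and 12 without WT 1, and it was 5 without WT 3, 4 without WT 2, 3 without KO 1 and 3 without KO 2. The share of all tested genes under that p was taken only in the main fit. These other counts therefore have no background beside them and cannot be read as particular to the members. WT 1, the WT library with the highest sum of multiciliated genes, was the lowest of the WT libraries in 18 of 31 members, against 29.3% of all tested genes. KO 3, the KO library with the lowest such sum, was the highest of its group in 26 of 31, against 35.8%. With the mean of the multiciliated genes as a covariate, which is partly the same as the group, the members' median was 0.21, 8 members were lower and 0 had an unadjusted p under 0.05.

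**Figure D1:**
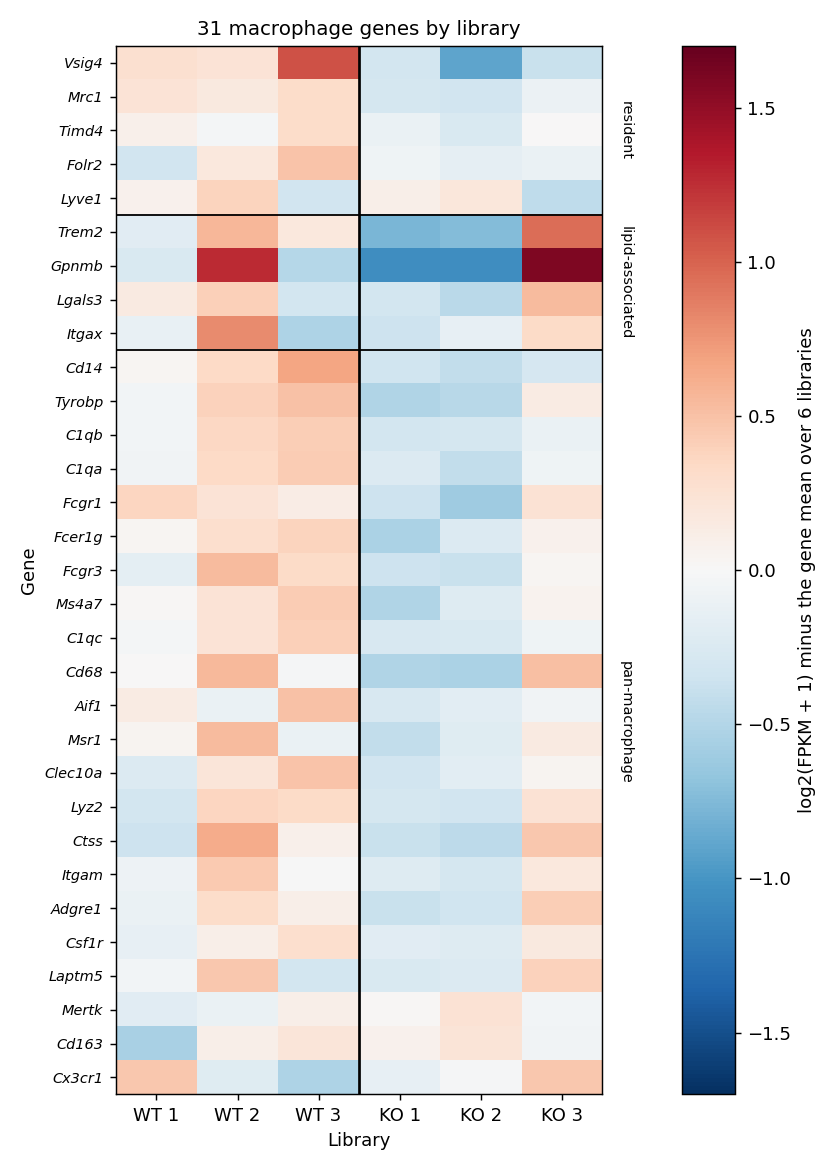
Each row is a macrophage gene and each column a library; the colour is log2(FPKM + 1) minus that gene's mean over the 6 libraries, with black lines between the groups and between the subsets. WT 2 and KO 3 stand out in red in the lipid-associated rows, and Vsig4, Mrc1, Cd14 and the C1q rows are blue in all 3 libraries labelled KO.

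Among the resident genes, Mrc1 and Vsig4 were lower in every library labelled KO than in any WT library, and the other 3 overlapped. Mrc1 encodes the mannose receptor, an endocytic receptor for glycans. Its level was 37.2, 35.3 and 39.4 FPKM in the WT libraries in order and 25.4, 24.9 and 29.2 FPKM in KO 1, KO 2 and KO 3. The spread within each group was small, with means of 37.3 ± 2.01 and 26.5 ± 2.35 FPKM (SD, n = 3). KO minus WT was -0.48 ± 0.11 on the log2 scale (standard error, limma unadjusted p = 0.00324, adjusted p = 0.223), the smallest p of all 31 members. Leaving out each library in turn gave differences between -0.55 and -0.44.

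Vsig4 encodes a complement receptor that inhibits T cells. It had 2.62, 2.53 and 5.40 FPKM in WT and 1.43, 0.619 and 1.31 FPKM in the libraries labelled KO. WT 3 was the highest and KO 2 the lowest, and the groups were apart. KO minus WT was -1.06 ± 0.28 on the log2 scale (standard error, limma unadjusted p = 0.00788, adjusted p = 0.223), the largest among the members, and it was -0.78 without WT 3. The ratio of the KO mean to the WT mean was 0.318 on the FPKM scale, at a level close to the minimum for testing.

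Timd4, a phosphatidylserine receptor of long-lived resident macrophages, ran from 2.69 to 3.69 FPKM in WT and from 2.14 to 2.78 FPKM in the libraries labelled KO, a log2 difference of -0.25 (limma adjusted p = 0.504). Folr2, the folate receptor beta, had 52.2, 74.9 and 92.4 FPKM in the WT libraries in order and 62.6, 59.0 and 60.8 FPKM in KO 1, KO 2 and KO 3. The KO libraries thus lay close together inside the WT range. Its log2 difference was -0.23 (limma adjusted p = 0.638), -0.45 without WT 1 and -0.04 without WT 3. Lyve1, a hyaluronan receptor, had 26.9, 33.5 and 20.2 FPKM in WT and 27.5, 29.4 and 18.7 FPKM in the libraries labelled KO. The lowest library of each group was number 3, and the log2 difference was -0.09 (limma adjusted p = 0.88).

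Lyve1 and Mrc1 are also expressed by lymphatic endothelium. Mmrn1, a lymphatic endothelial gene, had 7.19, 10.4 and 1.03 FPKM in WT and 4.03, 7.44 and 7.54 FPKM in the libraries labelled KO. Flt4, the lymphatic growth factor receptor, had 1.38 FPKM in WT 3 and between 4.82 and 6.80 FPKM in the other 5 libraries. Both were lowest in WT 3, which was also the lowest WT library for Lyve1 and the highest for Mrc1, and the WT order of Lyve1 was that of Mmrn1. The libraries labelled KO did not share that order: Lyve1 was lowest in KO 3, where Mmrn1 and Flt4 were the highest of their group. The part of lymphatic endothelium in the values of Lyve1 and Mrc1 was not tested.

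The C1q genes had the same highest and lowest WT libraries. C1qa, C1qb and C1qc encode the chains of the recognition molecule that starts the classical complement pathway, and macrophages are a main source of it. C1qa had 174, 229 and 245 FPKM in WT and 154, 135 and 171 FPKM in the libraries labelled KO. C1qb had 174, 228 and 238 FPKM against 144, 145 and 166 FPKM, and C1qc had 154, 185 and 208 FPKM against 130.4, 132 and 149.8 FPKM. In all 3 genes WT 1 was the lowest WT library, WT 3 the highest, KO 3 the highest library labelled KO, and the groups did not overlap. The gap between WT 1 and KO 3 was narrow, 174 against 171 FPKM in C1qa. The log2 differences were -0.48 for C1qa, -0.48 for C1qb and -0.40 for C1qc, each with a standard error between 0.15 and 0.17 (limma unadjusted p = 0.0288, 0.0209 and 0.0329, adjusted p = 0.305, 0.266 and 0.318). With the ciliated-cell covariate the differences were 0.05, 0.00292 and 0.00801.

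The C1q genes lie side by side on the minus strand of chromosome 4, C1qb from 136880126 to 136886200, C1qc from 136889801 to 136892936 and C1qa from 136895916 to 136898844 (GRCm38, the assembly of mm10). The start regions of C1qb, C1qc, Mrc1 and Vsig4 are shown because these are the members without overlap between the groups that the promoter table holds, and that of Gpnmb because it followed another pattern, described below. Each run is 300 bases from the RefSeq promoter table of GRCm38.p6, 250 before to 50 after the annotated start, 5′ to 3′ on the gene's strand. Capitals mark matches to AGGAAGT, the core bound by PU.1, the transcription factor of macrophage identity, or to TGACTCA, the AP-1 element, searched on both strands.
C1qb, chr4:136886151-136886450, minus strand: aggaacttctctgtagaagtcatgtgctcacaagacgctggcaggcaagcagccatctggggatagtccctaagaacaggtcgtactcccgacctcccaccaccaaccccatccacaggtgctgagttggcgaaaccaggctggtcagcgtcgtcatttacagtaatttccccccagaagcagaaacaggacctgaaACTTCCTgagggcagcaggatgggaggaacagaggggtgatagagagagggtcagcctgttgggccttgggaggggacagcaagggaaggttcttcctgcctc
C1qc, chr4:136892865-136893164, minus strand: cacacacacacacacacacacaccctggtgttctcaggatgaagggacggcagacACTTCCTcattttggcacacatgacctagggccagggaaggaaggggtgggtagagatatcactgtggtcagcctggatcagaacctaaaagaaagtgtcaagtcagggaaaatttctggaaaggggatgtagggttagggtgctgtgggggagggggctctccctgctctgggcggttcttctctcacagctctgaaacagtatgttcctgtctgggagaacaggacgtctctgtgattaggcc
Mrc1, chr2:14229164-14229463, plus strand: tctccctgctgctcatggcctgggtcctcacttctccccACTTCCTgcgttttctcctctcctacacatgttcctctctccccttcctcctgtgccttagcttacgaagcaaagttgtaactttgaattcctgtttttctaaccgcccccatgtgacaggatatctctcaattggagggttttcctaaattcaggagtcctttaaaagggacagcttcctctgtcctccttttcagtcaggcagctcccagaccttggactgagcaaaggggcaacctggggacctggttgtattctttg
Vsig4, chrX:96293389-96293688, minus strand: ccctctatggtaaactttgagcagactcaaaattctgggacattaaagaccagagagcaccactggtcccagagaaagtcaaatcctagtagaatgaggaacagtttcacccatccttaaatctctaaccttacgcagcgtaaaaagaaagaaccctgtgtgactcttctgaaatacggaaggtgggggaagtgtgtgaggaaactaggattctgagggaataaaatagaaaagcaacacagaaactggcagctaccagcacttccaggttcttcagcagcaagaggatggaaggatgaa
Gpnmb, chr6:49036268-49036567, plus strand: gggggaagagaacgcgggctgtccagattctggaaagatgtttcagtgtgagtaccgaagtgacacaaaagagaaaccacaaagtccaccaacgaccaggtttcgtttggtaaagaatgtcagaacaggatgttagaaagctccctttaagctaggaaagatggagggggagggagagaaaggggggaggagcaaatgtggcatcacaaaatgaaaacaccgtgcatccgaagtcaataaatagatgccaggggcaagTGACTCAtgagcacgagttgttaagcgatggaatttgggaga
C1qb, C1qc and Mrc1 each hold AGGAAGT in its reverse form, ACTTCCT, Vsig4 holds neither motif in this window, and Gpnmb holds TGACTCA. Promoters were found for 23 of the 31 members. AGGAAGT occurred in 7 of the 23 (C1qb, C1qc, Ctss, Fcgr1, Folr2, Lyz2 and Mrc1) and in 9.35% of all 32851 promoters in the table. TGACTCA occurred in 4 of the 23 (Cd68, Folr2, Gpnmb and Itgax) and in 5.2% of all. Members were counted by gene and the background by promoter. A gene with several promoters would have more chances of a match, so the shares differ in unit and do not show an excess. The 7 genes with AGGAAGT include Mrc1, whose groups were apart, and Lyz2, whose groups overlapped. A match describes these letters and does not show a binding site.

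Cd14, the co-receptor for bacterial lipopolysaccharide, was the other gene with no overlap. It had 24.8, 30.6 and 39.0 FPKM in WT and 18.8, 17.9 and 19.6 FPKM in the libraries labelled KO, with group means of 31.5 ± 7.14 and 18.8 ± 0.882 FPKM (SD, n = 3). The libraries labelled KO lay close together, below all 3 WT libraries. KO minus WT was -0.69 ± 0.17 on the log2 scale (standard error, limma unadjusted p = 0.00458, adjusted p = 0.223). Cd14 passed the threshold without WT 1, at -0.85 (limma adjusted p = 0.0359), where 0.104% of all tested genes passed as lower. It also passed with library weights, which let limma trust libraries unequally, at -0.44 (limma adjusted p = 0.0451). Mrc1 and Vsig4 passed with those weights too (limma adjusted p = 0.0367 and 0.0493), as did 3.66% of all tested genes as lower, and 3 of 31 members passed in all. With the ciliated-cell covariate the differences were smaller, -0.23 for Cd14, -0.59 for Vsig4 and -0.37 for Mrc1, each with a limma adjusted p of 1. Over the alternatives the adjusted p of Cd14 ran from 0.0359 to 1.

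Genes of the Fc receptor complex were next in order of p. Tyrobp encodes DAP12, the adaptor through which TREM2 and other receptors signal, and it had 95.6, 130.2 and 140.1 FPKM in WT and 69.1, 71.1 and 109 FPKM in the libraries labelled KO. Fcer1g, the shared gamma chain of Fc receptors, had 66.4, 79.6 and 85.2 FPKM against 44.4, 55.3 and 68.5 FPKM. In both genes KO 3 lay above WT 1, so the groups overlapped through that pair. The log2 differences were -0.56 and -0.47 (limma unadjusted p = 0.0433 and 0.0392). Fcgr3, a low-affinity receptor for IgG, had a log2 difference of -0.47 (limma unadjusted p = 0.0613), and Fcgr1, the high-affinity one, had -0.48 (0.0777). Fcgr1 had 3.61, 3.20 and 2.92 FPKM in WT and 1.81, 1.35 and 3.24 FPKM in the libraries labelled KO, so that KO 3 lay among the WT libraries. Ms4a7, a membrane protein of macrophages, had -0.45 (limma unadjusted p = 0.0424), with 6.86, 8.09 and 9.41 FPKM against 4.41, 5.64 and 7.09 FPKM. The 4 genes Tyrobp, Fcer1g, Fcgr3 and Ms4a7 all had an adjusted p between 0.333 and 0.392.

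Genes used to count macrophages had small differences next to their spread. Adgre1 had 16.3, 22.1 and 19.0 FPKM in WT and 13.3, 13.7 and 24.1 FPKM in the libraries labelled KO. KO 3 was the highest of all 6 libraries and KO 1 and KO 2 the lowest. Csf1r had 56.7, 67.4 and 76.8 FPKM against 54.9, 53.6 and 70.6 FPKM, a log2 difference of -0.16 (limma adjusted p = 0.672). Cd68, a glycoprotein of lysosomes, had 49.6, 73.3 and 48.7 FPKM against 34.5, 33.9 and 70.8 FPKM, a difference of -0.36 that was -0.70 without KO 3. Lyz2 ran from 423 to 675 FPKM in WT and from 418 to 624 FPKM in the libraries labelled KO. Itgam, the integrin CD11b, had a log2 difference of -0.23, and Aif1, an actin-binding protein of activated macrophages, one of -0.35. Ctss, a cathepsin that trims antigens, had -0.24, and Laptm5, a lysosomal membrane protein, -0.07. The scavenger receptor Msr1 had -0.31 and the lectin Clec10a -0.31. None of the 8 genes from Cd68 to Clec10a had an unadjusted p under 0.05.

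The 3 members with a positive difference were Mertk, Cd163 and Cx3cr1. Mertk, a receptor for engulfing dying cells, ran from 12.4 to 15.5 FPKM in WT and from 13.8 to 17.2 FPKM in the libraries labelled KO, a log2 difference of 0.14 (limma adjusted p = 0.64). It was positive with each library left out, from 0.06 to 0.23. Cd163, the receptor that clears haemoglobin, had 16.1, 26.0 and 28.0 FPKM against 25.4, 28.2 and 23.1 FPKM. Only WT 1 stood below the rest, and without it the difference changed from 0.16 to -0.08. Cx3cr1 had 0.19, and its value was negative without WT 3.

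**Figure D2:**
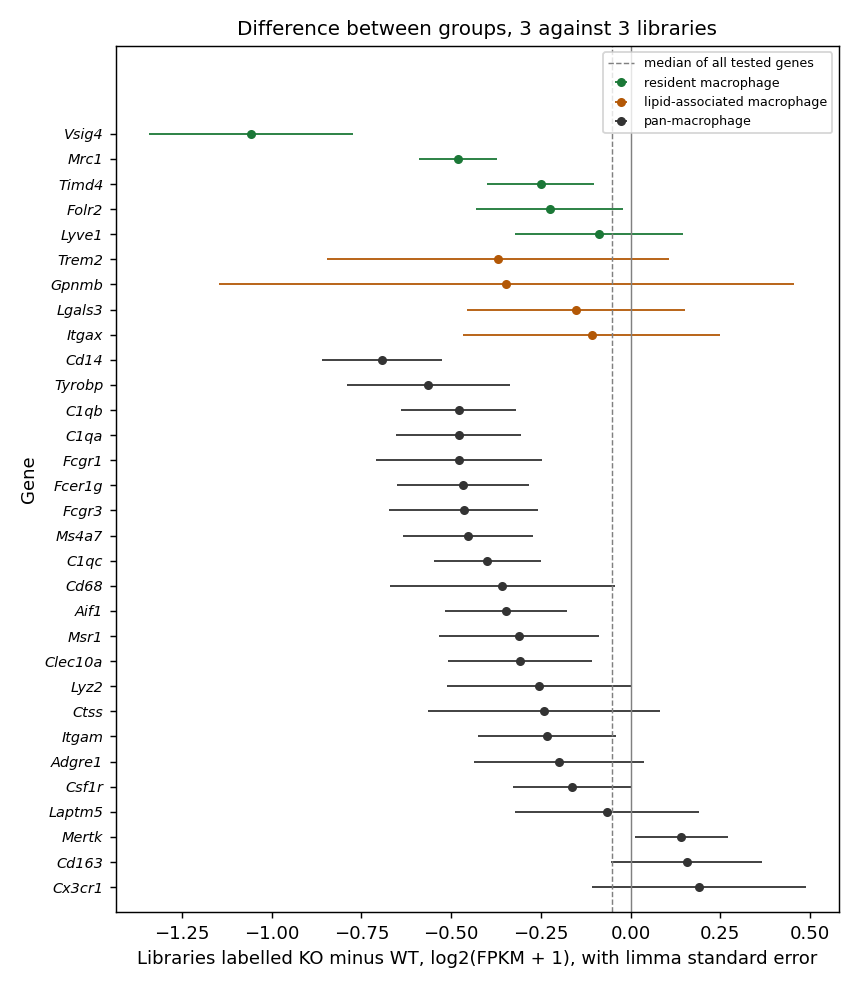
Points are the log2(FPKM + 1) difference of each gene, libraries labelled KO minus WT, with the limma standard error as bars (3 libraries against 3), coloured by subset; the dashed line is the median of all tested genes, -0.05. The bars of Vsig4, Mrc1 and Cd14 stay clear of 0, and those of all 4 lipid-associated genes cross it. A bar of 1 standard error clear of 0 does not mark a called gene. Those of Folr2 and Mertk are clear of 0 too, with a limma unadjusted p of 0.309 and 0.314.

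The lipid-associated genes separated libraries within each group. Gpnmb, a membrane glycoprotein of lysosomes, had 6.88, 21.7 and 5.73 FPKM in WT and 3.53, 3.56 and 27.4 FPKM in the libraries labelled KO. The highest library had 7.78 times the level of the lowest, and both lie in the KO group. Trem2, the lipid-sensing receptor, had 7.13, 12.7 and 9.49 FPKM against 4.42, 4.57 and 17.0 FPKM. Itgax, the integrin CD11c, had 1.99, 4.68 and 1.27 FPKM against 1.54, 1.96 and 3.07 FPKM. Lgals3, a lectin that binds damaged lysosomes, had 88.4, 105 and 63.8 FPKM against 64.3, 57.5 and 117 FPKM. In all 4 genes WT 2 was the highest WT library and KO 3 the highest library labelled KO.

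The group differences of these genes were small beside that spread. They were -0.35 for Gpnmb with a standard error of 0.80, -0.37 for Trem2, -0.11 for Itgax and -0.15 for Lgals3 on the log2 scale (limma adjusted p = 0.861, 0.743, 0.905 and 0.837). Gpnmb had -1.23 without KO 3 and 0.20 without WT 2. The median of the 4 genes was -0.25 in all libraries, -0.70 without KO 3 and 0.11 without WT 2. The balance of lipid-associated and resident genes also varied within groups. The mean log2(FPKM + 1) of the lipid-associated genes exceeded that of the resident genes by 0.33 in WT 2 and 0.82 in KO 3, and lay below it by between -0.90 and -0.41 in the other 4 libraries.

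WT 2 and KO 3 were the highest of their groups in 12 of 31 members, chosen as a pattern after the values were seen, against 13.4% of all tested genes. These were 4 of 4 lipid-associated genes, 8 of 22 pan-macrophage genes (Adgre1, Cd68, Itgam, Lyz2, Fcgr3, Ctss, Laptm5 and Msr1) and 0 of 5 resident genes. The pattern was also looked for in genes outside the set. Of 22 genes of macrophage lysosomes and lipid handling, 9 showed it: Spp1, Lipa, Lgmn, Psap, Grn, Atp6v0d2, Mmp12, Abca1 and Abcg1. Atp6v0d2, a proton pump subunit, had 1.17, 5.47 and 1.11 FPKM in WT and 0.539, 0.773 and 7.04 FPKM in the libraries labelled KO. Mmp12, the elastase of macrophages, had 3.60, 28.0 and 2.65 FPKM against 2.65, 2.76 and 11.7 FPKM. Lipa, the acid lipase that splits stored lipid, had 43.3, 50.2 and 36.6 FPKM against 32.4, 33.05 and 49.3 FPKM. Of 25 genes of CSF1 signalling and macrophage transcription, 12 showed it, among them the transcription factors Irf5 and Irf8. The pattern was not limited to macrophage lists: 3 of 6 tested neutrophil genes (Retnlg, Mmp9 and Clec4d) and 4 of 10 endothelial genes (Flt4, Ccl21a, Reln and Mmrn1) showed it too. It was present in 2 of 11 monocyte genes, 2 of 13 fat cell genes, 1 of 9 dendritic cell genes and 0 of 5 lymphocyte genes. It was found in 0 of 20 multiciliated and 0 of 12 epithelial genes. Nothing in the labels sets WT 2 and KO 3 apart from the other libraries. The multiciliated sum was 102, 42.1 and 53.5 FPKM in WT, lowest in WT 2. Tppp3 alone had 40.3, 35.1 and 46.3 FPKM there, so the order of WT 2 and WT 3 rests largely on that gene. The mean log2(FPKM + 1) of the multiciliated genes was nearly the same in both, 0.478 in WT 2 and 0.486 in WT 3. The multiciliated sum was 238, 239 and 135 FPKM in the libraries labelled KO, lowest in KO 3. The epithelial sum was also lowest in KO 3 of its group (116 FPKM), but in WT it was lower in WT 3 (8.67 FPKM) than in WT 2 (16.8 FPKM). Whether these cells had a part in the pattern was not tested.

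**Figure D3:**
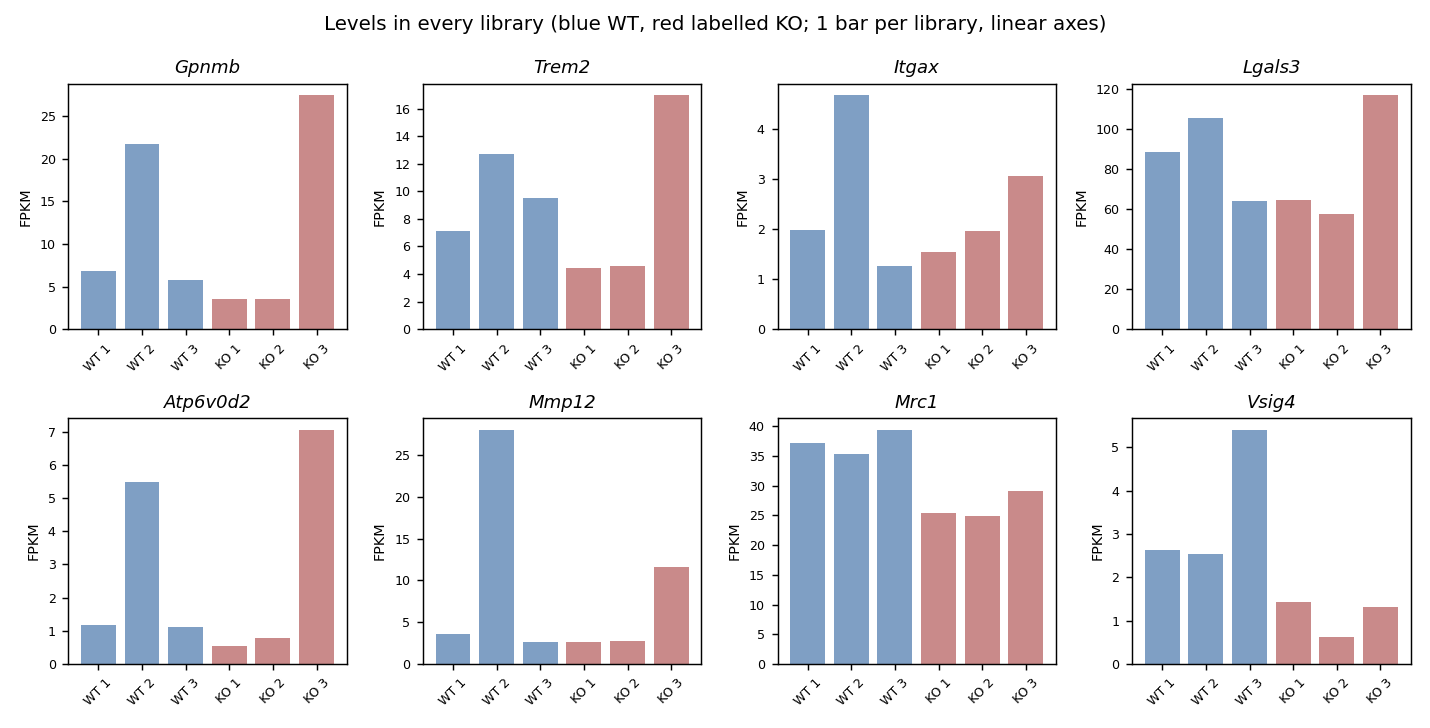
Bars give the FPKM of 8 genes in each of the 6 libraries, blue for WT and red for libraries labelled KO, on linear axes that start at 0. In the top row and in Atp6v0d2 and Mmp12 the tall bars are WT 2 and KO 3, and in Mrc1 and Vsig4 all 3 WT bars stand above all 3 KO bars.

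Levels were also set against another macrophage gene of the same library, an added comparison chosen after the values were seen. Divided by Csf1r, 10 of the 30 other members did not overlap and were lower in KO, against 2.18% of all tested genes, and 0 were higher, against 5.05%. The 10 were Mrc1, Vsig4, Cd14, C1qa, C1qb, C1qc, Fcgr3, Fcer1g, Tyrobp and Ms4a7. A macrophage gene as divisor can take variation shared between members out of their ratios and add it to those of other genes. The share of all tested genes lower without overlap was 12.2% before the division. The contrast of 10 members with 2.18% therefore depends in part on the divisor and cannot be read as particular to the members. The ratio of Cd14 to Csf1r was 0.438, 0.455 and 0.507 in WT and 0.343, 0.334 and 0.278 in the libraries labelled KO. That of C1qb was 3.06, 3.38 and 3.10 against 2.62, 2.71 and 2.35, and that of Mrc1 was 0.656, 0.524 and 0.512 against 0.463, 0.464 and 0.413. In each of these 3 genes all WT ratios stood above all KO ratios.

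The count differed with the divisor. It was 4 of 30 when divided by Lyz2 (Vsig4, Cd14, Fcgr3 and Tyrobp), against 0.439% of all tested genes. It was 3 of 30 when divided by Adgre1 (Vsig4, Fcgr1 and Tyrobp), against 0.502%, and 0 of 30 when divided by Cd68, against 0.112%. No member was higher without overlap per Lyz2, Adgre1 or Cd68, against 2.02%, 1.67% and 2.07% of all tested genes. These divisors are macrophage genes as well, so the limit given for Csf1r holds for their shares too. Lyz2, Adgre1 and Cd68 are among the genes highest in WT 2 and KO 3, and Csf1r is not. Vsig4 and Tyrobp are on the lists for Csf1r, Lyz2 and Adgre1.

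**Figure D4:**
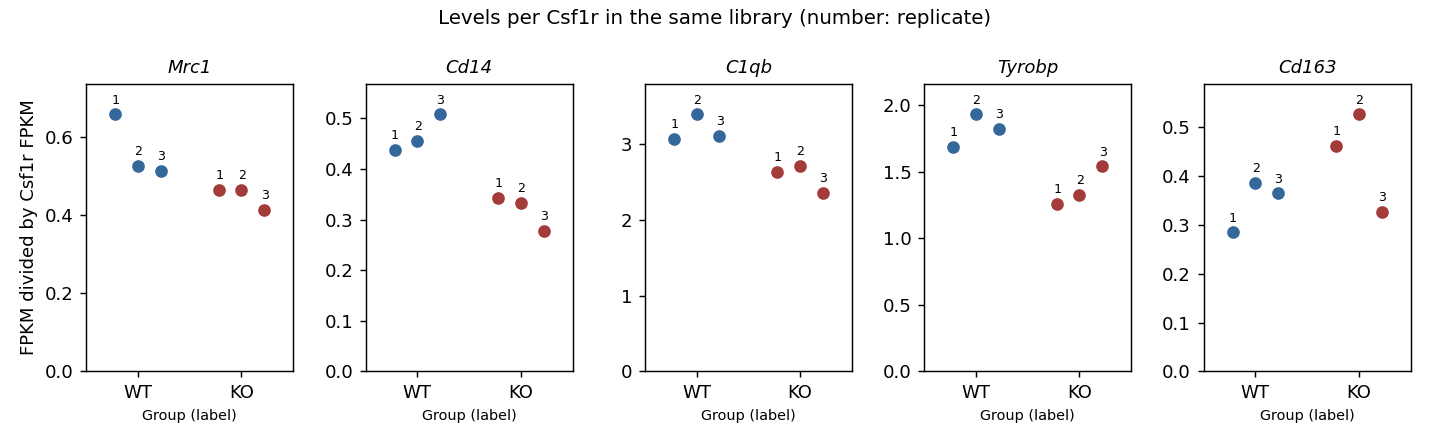
Each point is 1 library, numbered by replicate: the FPKM of the gene divided by the Csf1r FPKM of the same library, for WT (blue) and libraries labelled KO (red), on axes that start at 0. The groups are apart for Mrc1, Cd14, C1qb and Tyrobp, and they overlap for Cd163.

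Regulators and products linked to these cells showed a similar mixture. Of 25 genes of CSF1 signalling and macrophage transcription, 0 passed the adjusted threshold. At an unadjusted p under 0.05, 3 were lower, against 4.43% of all tested genes, and 1 was higher, against 9.13%. The median log2 difference was -0.10, against -0.05 over all tested genes. Of the ligands of CSF1R, Il34 had 20.2, 15.2 and 14.7 FPKM in WT and 27.5, 28.2 and 19.8 FPKM in the libraries labelled KO (0.56, limma unadjusted p = 0.0182, adjusted p = 0.252), and Csf1 had -0.10 ± 0.17 (standard error, limma unadjusted p = 0.569). Spi1, which encodes PU.1, had at least 13.4 FPKM in every WT library and 8.40, 6.53 and 15.8 FPKM in the libraries labelled KO, so KO 3 was the highest of all 6. Cebpb, a transcription factor shared with fat cells, had -0.60 (limma unadjusted p = 0.0162). Gata6, a transcription factor of peritoneal macrophages, had -0.42 (0.0302), and Nr1h3, the oxysterol receptor, had -0.42 (0.0393). Of the 22 lysosome and lipid handling genes, 19 were lower, against 59.2% of all tested genes, with a median of -0.29, and 0 passed the adjusted threshold. Those with the smallest p were Plin2, a lipid droplet coat (-0.51), Ctsz, a cathepsin (-0.44), and Npc2, a cholesterol carrier (-0.65). Fat cells express many genes of this list as well.

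Other blood cells share several of the macrophage markers. Each count of lower genes below stands beside 59.2% of all tested genes, whose median was -0.05. Of 14 neutrophil genes 6 were tested and all 6 had lower values (median -0.83). The 14 neutrophil genes summed to between 37.9 and 56.3 FPKM in WT and between 10.9 and 23.2 FPKM in the libraries labelled KO. The defining marker Ly6g was at 0 in all libraries. S100a8, S100a9 and Mmp9 made up a large part of the WT sums. S100a8 had 10.5, 8.245 and 19.4 FPKM in WT and 3.21, 2.5 and 3.28 FPKM in KO. S100a9 had 8.02, 9.47 and 18.0 FPKM against 0.738, 0.156 and 1.425 FPKM. The separation of the neutrophil sums therefore cannot be read as a drop across the neutrophil genes. Neutrophils also express Cd14, Fcer1g, Tyrobp and Itgam. Of 11 tested monocyte genes 7 were lower (median -0.23), beside 59.2% of all tested genes. Plac8 had -0.67 (limma unadjusted p = 0.00175), Ly6c2 -0.42 (0.0554), Chil3 -0.65 (0.0578) and F13a1 -0.32 (0.052). The 4 higher genes were Ace at 0.40 (limma unadjusted p = 0.0263), Vcan at 0.46 (0.034), Fn1 at 0.52 (0.125) and the chemokine receptor Ccr2 at 0.09. The monocyte sums ranged from 213 to 301 FPKM in WT and from 264 to 274 FPKM in the libraries labelled KO. Fn1 made up a large part of them, with 67.5, 127.7 and 55.0 FPKM in WT and 119.4, 105.4 and 112.1 FPKM in KO. The monocyte sums therefore cannot be read as a level of monocytes. Of 9 tested dendritic cell genes 7 were lower (median -0.22), with Mgl2, a lectin that macrophages also carry, at -0.60 (limma unadjusted p = 0.00481) and Kmo at 0.40 (0.0431). The dendritic cell sums ranged from 80 to 111 FPKM in WT and from 69.1 to 71.7 FPKM in the libraries labelled KO. Mgl2 made up a large part of them, with 49.234, 52.375 and 67.12 FPKM in WT and 37.45, 32.965 and 38.898 FPKM in KO. The separation of the sums therefore cannot be read as a drop across the dendritic cell genes. The part of these cells in the differences of the macrophage genes was not tested. Of 5 tested lymphocyte genes all 5 were lower (median -0.56), and the list summed to between 16.2 and 23.7 FPKM in WT and between 8.95 and 13.2 FPKM in KO. Of 10 tested endothelial genes 8 were higher (median 0.23), as were 5112 of all 12539 tested genes. WT 3 was the lowest of all libraries in Cdh5, Kdr, Pecam1, Flt4, Reln, Mmrn1 and Ccl21a. Cdh5 had 85.3, 80.2 and 28.7 FPKM in WT and 71.5, 79.5 and 72.5 FPKM in KO. The count of 8 therefore leans on WT 3 and cannot be read as a rise across endothelial genes. Pdpn was higher in every library labelled KO than in any WT library. Fat cell genes, the check on the tissue label, were abundant: the 13 listed summed to between 41000 and 71900 FPKM in WT and between 29700 and 37000 FPKM in the libraries labelled KO, and all 13 had lower values there (median -0.43).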

How the data were processed

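RNA-seq values of 6 libraries were analysed. Per the labels' protocols, TRIzol RNA was made into stranded mRNA libraries, and the tools named in the submitters' processing notes are STAR 2.5.4, Cufflinks and Cuffdiff 2.2.1 (build mm10). The annotation is not given in the sources used here. The values the authors deposited, 1 column per library, were read as FPKM from those tools and from the values, since no header names the unit. The table has 21853 lines; for 24 repeats of a symbol only the line of largest mean was used. Genes averaging 1 FPKM or more (12539) were put on the log2(FPKM + 1) scale and tested by limma 3.58.1 under R 4.3.3 (group as the only term, mean-variance trend, Benjamini-Hochberg adjusted p under 0.05). Fold changes on this scale understate those of low genes. Relative to WT 1, steps of low values gave depths of 0.79 in WT 2 and between 0.651 and 0.946 in the libraries labelled KO; in WT 3 no clear step was found. Total depth is unknown, and no counting intervals are given.

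All 31 members are named, with up to 3 genes of smallest p from each other marker list. Csf1, Nr1h3, Spi1, Mmrn1, Ccr2, Ly6c2, Chil3, F13a1, Fn1, Cdh5, Kdr and Pecam1 were chosen after their values were seen. So were the genes named for being highest in WT 2 and KO 3. The members and lists were chosen with earlier results of these data known. No test over a list was made. Transcript length and GC content came from GENCODE vM21 and gene positions from RefSeq, both on GRCm38. The fit was tested on simulated data. The alternatives were each library left out in turn, library weights, quantile normalization, a minimum mean of 5 FPKM or none, a pseudocount of 0.1, median-ratio scaling, the replicate number as a block, a length and GC correction and a ciliated-cell covariate; dividing by 1 member was added after the data were seen.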

Additional observations from a re-analysis of the deposited data

How the results depend on the processing

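No gene passed the adjusted threshold in 13 of the 15 alternatives; 970 genes passed with library weights and 482 without WT 1, and 0 to 482 with a library left out. Zfp251 passed in the same ones, at 0.64 with library weights, and ran from 0.65 to 0.78 with a library left out. The members' median log2 difference of -0.31 was 0.21 with the ciliated-cell covariate, that of the pan-macrophage genes 0.21, of the lipid-associated genes 0.73 and of the resident genes -0.37; the resident median was -0.38 with quantile normalization. With a library left out the medians ran from -0.46 to -0.18 for all members, -0.45 to -0.21 for resident, -0.70 to 0.11 for lipid-associated and -0.47 to -0.21 for pan-macrophage genes.

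All 31 members kept their sign with the pseudocount of 0.1, without a filter, with median-ratio scaling and with the length and GC correction, as did the 25 averaging 5 FPKM or more. With quantile normalization the sign changed for Lgals3 (0.0337), Csf1r (0.00562), Lyz2 (0.0668), Laptm5 (0.0781) and Cx3cr1 (-0.29), and with library weights for Folr2 (0.15) and Cx3cr1 (-0.38). With the ciliated-cell covariate it changed for 22: Folr2 0.37, Trem2 1.03, Gpnmb 1.63, Itgax 0.43, Lgals3 0.25, Adgre1 0.49, Cd68 0.42, Itgam 0.28, Csf1r 0.34, Lyz2 0.63, Clec10a 0.36, C1qa 0.0477, C1qb 0.00292, C1qc 0.00801, Fcgr3 0.27, Fcer1g 0.0436, Tyrobp 0.21, Ctss 0.85, Laptm5 0.38, Msr1 0.0851, Cx3cr1 -0.26 and Ms4a7 0.045. With a library left out the range was -0.27 to 0.11 for Lyve1, -1.23 to 0.20 for Gpnmb, -0.40 to 0.27 for Itgax, -0.46 to 0.0418 for Lgals3, -0.0796 to 0.30 for Cd163, -0.53 to 0.0136 for Ctss, -0.28 to 0.15 for Laptm5 and -0.0255 to 0.46 for Cx3cr1. Where a sign changed, the cause was not tested.

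Members lower without overlap numbered 6, against 10, 3, 4 and 0 of 30 when divided by Csf1r, Adgre1, Lyz2 and Cd68, a comparison chosen after seeing the data. Same-numbered libraries deviated together in numbers 1 and 3 (correlation of deviations 0.228 and 0.22) and oppositely in number 2 (-0.2). These values do not show a pairing by number, and with 3 libraries per group they cannot exclude one. With the replicate block the members' median was -0.31, 0 genes passed and 10 members, rather than 9, had an unadjusted p under 0.05. Depth limits the low genes Vsig4, Itgax and Cx3cr1 most, because few fragments lie behind each value.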
